A study of Bos taurus with 18 samples.

Results

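*bta-miR-320a*, *bta-miR-320b* and *bta-miR-484* are the cattle members of the miR-320 and miR-484 families in the deposited tables. They were chosen by name, as miRNAs whose human and mouse counterparts are known to mature without Drosha, and are 3 of the 1071 miRNAs listed. Plasma was taken from the same 3 Japanese Black steers, castrated males raised under 1 feeding system at 1 farm, when they were 20, 25 and 30 months old. Every sample was split into an exosomal (EX) library, from RNA inside small vesicles that cells release, and a non-exosomal free circulating (FC) library, from RNA held outside them by plasma proteins, so each of the 6 groups had 3 libraries, 1 per steer. The fractions were separated on spin columns and no animal was treated, and age, time on feed and sampling date cannot be told apart.

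Most miRNAs are cut from a long primary transcript by Drosha in the nucleus and then by Dicer in the cytoplasm. The miR-320 hairpin is known instead as a short capped transcript that is made at its final size, leaves the nucleus without Drosha and yields its mature miRNA from the 3′ arm, and miR-484 is likewise known to need Dicer but not Drosha. Mirtrons, which are spliced introns, and miRNAs within small nucleolar RNAs bypass Drosha by other routes, whereas miR-451 of red cells needs Drosha but is trimmed by Argonaute in place of Dicer.

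The mature sequences below, as listed in the deposited count table, show what separates the 3 members, with the seed, bases 2 to 8 from the 5′ end, in capitals.
bta-miR-320a: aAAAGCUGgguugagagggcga
bta-miR-320b: aGCUGGGUugagaggguggu
bta-miR-484: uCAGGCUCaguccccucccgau

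*bta-miR-320a* and *bta-miR-484* were 22 nucleotides long and *bta-miR-320b* 20. No seed was shared, either among the 3 members or with any other of the 1071 miRNAs (0 further miRNAs for each seed). G and C made up 54.5% of *bta-miR-320a*, 60.0% of *bta-miR-320b* and 63.6% of *bta-miR-484*. The different seeds of both miR-320 members came from a shift at the 5′ end, since the first base of *bta-miR-320b* aligned with position 4 of *bta-miR-320a*. The next lines show that alignment, with the longest run common to both in capitals.
bta-miR-320a: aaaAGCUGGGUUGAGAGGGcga
bta-miR-320b: AGCUGGGUUGAGAGGGuggu

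Of 19 aligned bases 17 were identical, and the run in capitals spanned 16 bases, positions 4 to 19 of *bta-miR-320a*. The substitutions were C20U and A22G, with the base of *bta-miR-320a* first and positions counted from its 5′ end. The 16-base run was found in 2 miRNAs of the table, these members alone, so a read that lies wholly within it matches both. In the RefSeq gene table of assembly ARS-UCD2.0, cattle have 2 loci for *bta-miR-320a*. *MIR320A-1* lies between *PHYHIP* and *POLR3D*, the latter coding for a subunit of RNA polymerase III, and *MIR320A-2* lies within the span of *RNF180*. *MIR320B* lies between *PODXL* and *PLXNA4*, and *MIR484* between *MARF1* and *NDE1*, a gene needed for division of neural progenitors.

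Counts assigned to miRNAs ranged from 991354 to 2778618 per EX library and from 3615234 to 12088735 per FC library. A floor of 3 counts therefore stood at 1.08 to 3.03 CPM (counts scaled to the library total) in EX and 0.248 to 0.83 CPM in FC, and it covers counting error only, since PCR copies of 1 molecule are not independent. Fits used the 345 EX and 358 FC miRNAs with CPM > 5 in at least 3 of 9 libraries, and 330 were in both. The EX libraries at 30 months stood apart, with 258 to 296 miRNAs that had a count, against 381 to 446 in EX at the earlier ages, and in FC the numbers were 398 to 452 against 582 to 694. The 2 lymphocyte markers, *bta-miR-150* and *bta-miR-342*, together took 11.3 to 32.5% of EX counts at 20 and 25 months and 1.37 to 2.75% at 30 months. In FC they took 7.94 to 23.1% and 1.47 to 2.69%. The 3 red cell markers, *bta-miR-451*, *bta-miR-486* and *bta-miR-144*, took 2.54 to 9.22% of EX counts at the earlier ages and 3.48 to 5.41% at 30 months. Their sum hides different directions. From 25 to 30 months the EX mean of *bta-miR-451* went from 25221 to 7325 CPM and that of *bta-miR-144* from 545 to 217 CPM. The mean of *bta-miR-486* went from 29453 to 38561 CPM, with overlapping ranges. *bta-miR-122* of hepatocytes took 1.22 to 9.52% of EX counts at the earlier ages and 3.55 to 10.9% at 30 months, and *bta-miR-223* of myeloid cells and platelets took 0.965 to 5.03% and 2.53 to 2.99%. No marker was at 0 in any library (the lowest was 90.5 CPM, of *bta-miR-144*), and the part of these shifts in the results that follow was not tested. In plasma, a change in the cells that release a miRNA and a change in the amount each cell releases cannot be told apart.

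*bta-miR-320a* was the abundant member and rose in EX at 30 months, whereas no age difference passed the test in FC. In EX it stood at 3027, 2068 and 2364 CPM in steers 1, 2 and 3 at 20 months. At 25 months the values were 3148, 2160 and 1480 CPM, and at 30 months 6178, 7370 and 4869 CPM. All 3 libraries at 30 months, those with the fewest detected miRNAs, lay above all 6 earlier ones, a pattern that 13.6% of the 345 EX miRNAs shared in this direction. Steer 1 was the highest of the 3 at both earlier ages and steer 2 at 30 months.

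In FC *bta-miR-320a* stood at 2516, 1604 and 1693 CPM in steers 1, 2 and 3 at 20 months. At 25 months it stood at 2556, 1830 and 1233 CPM, and at 30 months at 1751, 1634 and 1819 CPM. The FC ages overlapped throughout, and the 3 libraries at 30 months were the closest together (SD 93.3 CPM, against 503 and 663 CPM at 20 and 25 months). It ranked 33rd to 60th of all miRNAs in the EX libraries and 54th to 69th in the FC libraries, and made up at most 0.737% of the counts of a library.

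Ordered by mean, *bta-miR-320a* stood highest in EX at 30 months, at 6139 ± 1251 CPM (SD, n = 3). EX at 20 months followed at 2486 ± 491 CPM and EX at 25 months at 2262 ± 839 CPM. FC at 20, 25 and 30 months came last, at 1938 ± 503, 1873 ± 663 and 1735 ± 93.3 CPM. Only the first place was separate: each later group overlapped its neighbour in this order.

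**Figure D1:**
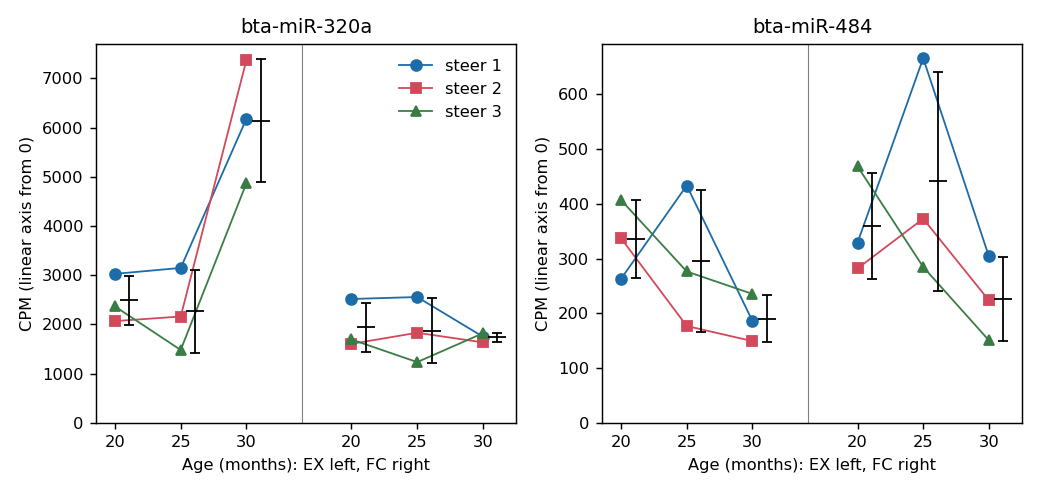
CPM of *bta-miR-320a* (left) and *bta-miR-484* (right) in each of 18 libraries, with age in months on the x axis, EX and FC side by side, 1 line per steer, and black bars for the mean ± SD of 3 steers. *bta-miR-320a* in EX at 30 months (4869 to 7370 CPM) stands above all other libraries, whereas each *bta-miR-484* group overlaps its neighbour in level.

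In the edgeR quasi-likelihood fit with steer as a block, *bta-miR-320a* in EX was 2.03-fold higher at 30 than at 25 months. The log2 fold change was 1.02 (SE 0.23, 95% interval 0.50 to 1.55, FDR = 0.0226), and in CPM all 3 steers rose, by 0.97, 1.77 and 1.72 on the log2 scale. This passed both criteria for a DE-miRNA, FDR < 0.05 and |log2 fold change| > 1, as did 14.2% of the 345 EX miRNAs in either direction and 3.77% in the higher one. The fold was scaled by TMM, under which the median of all tested miRNAs stood at -0.51, and with library totals alone the median was -0.04 and *bta-miR-320a* was 1.49 higher. With the steers left out in turn the log2 fold change was 0.69 to 1.16 and the call was lost each time, with FDR = 0.0726 without steer 1, 0.231 without steer 2 and 0.0800 without steer 3 by edgeR.

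Against 20 months, *bta-miR-320a* in EX at 30 months was higher by 0.96 on the log2 scale (SE 0.23, 95% interval 0.43 to 1.48, edgeR FDR = 0.0295), a rise in 3 of 3 steers that fell short of the fold criterion. At FDR < 0.05, 3.77% of EX miRNAs were higher in this comparison. Leaving out any 1 steer ended this call as well, with log2 fold changes of 0.84 to 1.09 and edgeR FDR = 0.131, 0.178 and 0.0555 without steers 1, 2 and 3. Between 20 and 25 months the difference in EX was -0.07 (95% interval -0.59 to 0.45, edgeR FDR = 0.998), where 0.29% of EX miRNAs were called.

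In FC the corresponding log2 differences of *bta-miR-320a* were -0.16 from 25 to 30 months (SE 0.22, 95% interval -0.66 to 0.34), 0.05 from 20 to 25 months and -0.11 from 20 to 30 months. None passed the test (edgeR FDR = 0.607, 0.999 and 0.755), while 18.7%, 0.0% and 7.26% of the 358 FC miRNAs were called at FDR < 0.05. The 0.0% stood for 0 miRNAs by the edgeR quasi-likelihood test, beside 13 at an unadjusted p under 0.05, and DESeq2 also called 0. From 25 to 30 months the differences were -0.55 and -0.16 in steers 1 and 2 on the log2 CPM scale, and 0.56 in steer 3.

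The fractions of the same plasma were then compared. *bta-miR-320a* was higher in EX than in FC in all 9 plasma samples. On the log2 CPM scale the EX minus FC difference was 0.27, 0.37 and 0.48 in steers 1, 2 and 3 at 20 months. It was 0.30, 0.24 and 0.26 at 25 months. The differences at 30 months were wider, 1.82, 2.17 and 1.42. The EX and FC ranges overlapped at 20 and 25 months but not at 30 months, as for 13.0% of the 330 miRNAs in this direction. The fit of all 18 libraries took steer and not plasma sample as the block, so it did not use the pairing of EX with FC. In this fit the log2 difference was 0.40 at 20 months (95% interval 0.02 to 0.77, edgeR FDR = 0.531) and 0.35 at 25 months (95% interval -0.03 to 0.72, edgeR FDR = 0.700), where 1.52% and 1.82% of miRNAs were called. Alternatives with all steers kept, among them plasma sample as the block, gave edgeR or DESeq2 FDR = 0.0764 to 0.911 at 20 months and 0.177 to 0.997 at 25 months. At 30 months the log2 difference of *bta-miR-320a* was 1.35, or 2.55-fold (SE 0.18, 95% interval 0.97 to 1.73, edgeR FDR = 0.000173), where 21.8% were called in either direction and 2.73% as higher in EX. By p-value it was 4th of the 330 miRNAs, and by fold 19th from the top. In the same comparison *bta-miR-223* of myeloid cells and platelets was lower in EX than in FC (-1.39, SE 0.39, edgeR FDR = 0.0191), at 2.53 to 2.99% of EX and 4.88 to 5.95% of FC counts, and the other 6 cell markers were not called. The part of this difference in the *bta-miR-320a* result was not tested.

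The rise of *bta-miR-320a* from 25 to 30 months itself differed between fractions. EX minus FC was 1.00 on the log2 scale (SE 0.25, 95% interval 0.47 to 1.53, edgeR FDR = 0.0246). Among 330 miRNAs 7.58% were called, 24 of them lower and 1 (0.303%) higher, and *bta-miR-320a* was that 1. With RLE size factors 3 were called higher and 22 lower, and with library totals alone 5 and 17, so its place alone depended on the scaling. The call was lost without steer 1 (1.21, FDR = 0.16), steer 2 (0.90, FDR = 0.315) or steer 3 (1.21, FDR = 0.0555) in edgeR, without the filter on low values (1.24, FDR = 0.0572) and with CPM > 5 asked of all libraries (1.26, FDR = 0.0729).

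*bta-miR-484* was less abundant in every library, and none of its comparisons passed the test. In EX it stood at 263, 337 and 407 CPM in steers 1, 2 and 3 at 20 months. At 25 months it stood at 434, 177 and 277 CPM, and at 30 months at 186, 149 and 236 CPM. Steer 2 was the lowest at both 25 and 30 months, and the range at 30 months overlapped that at 25 months but lay below that at 20 months, as for 21.4% of EX miRNAs.

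In FC *bta-miR-484* stood at 329, 282 and 469 CPM in steers 1, 2 and 3 at 20 months. At 25 months it stood at 666, 373 and 285 CPM, and at 30 months at 304, 224 and 151 CPM. Steer 1 gave both the highest value, at 25 months, and the highest of the 3 at 30 months. Ordered by mean, FC at 25 months came first at 441 ± 200 CPM (SD, n = 3) and FC at 20 months next at 360 ± 97.0 CPM. EX at 20 and 25 months followed at 336 ± 72.0 and 296 ± 129 CPM. FC and EX at 30 months were lowest, at 226 ± 76.8 and 190 ± 43.3 CPM, and every group overlapped its neighbour in this order.

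From 25 to 30 months *bta-miR-484* was lower in 3 of 3 steers in each fraction. In EX the log2 CPM difference was -1.22, -0.24 and -0.23 in steers 1, 2 and 3, and in FC -1.13, -0.74 and -0.92. In the fits, the log2 fold change was -1.09 in EX (SE 0.46, 95% interval -2.14 to -0.03, edgeR FDR = 0.156) and -1.04 in FC (SE 0.32, 95% interval -1.76 to -0.31, edgeR FDR = 0.0509). With library totals alone they were -0.61 and -0.94. Neither passed the test, where 14.8% of EX miRNAs were called in either direction and 10.7% as lower, and 11.7% of FC miRNAs as lower. The FC value lay just outside the threshold and came under it in 5 of 11 alternatives, with FDR = 0.0337 in the edgeR fit without the steer block.

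Against 20 months the log2 fold change of *bta-miR-484* at 30 months was -1.24 in EX (95% interval -2.30 to -0.18, edgeR FDR = 0.112) and -0.71 in FC (95% interval -1.44 to 0.02, edgeR FDR = 0.173), where 14.2% of EX miRNAs were called. Between 20 and 25 months it was -0.15 in EX and 0.33 in FC (edgeR FDR = 0.998 and 0.999). EX against FC gave -0.01, -0.47 and -0.72 at 20, 25 and 30 months, with edgeR FDR = 0.995, 0.973 and 0.236, and at 30 months the 95% interval was -1.56 to 0.13. The 30-month value was -0.46 with RLE size factors and -0.27 with library totals alone, and on the log2 CPM scale steers 1, 2 and 3 had -0.71, -0.58 and 0.64. The change from 25 to 30 months in EX minus that in FC was -0.24 (95% interval -1.43 to 0.94, edgeR FDR = 0.861), and its sign turned with library totals alone (0.34). No difference of *bta-miR-484* between fractions was detected, and these intervals give the sizes that remain possible.

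**Figure D2:**
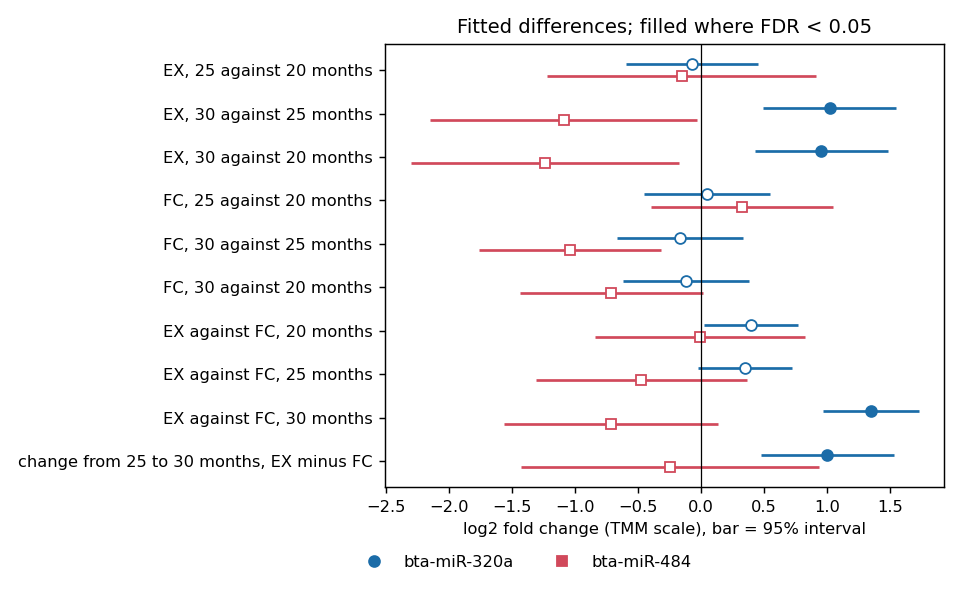
Fitted log2 fold changes (x axis, TMM scale) of *bta-miR-320a* (circles) and *bta-miR-484* (squares) in each comparison, with 95% intervals as bars and filled marks where the edgeR FDR was under 0.05. The 4 filled marks all belong to *bta-miR-320a* and are the comparisons of EX at 30 months, from 0.96 to 1.35.

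The counts behind *bta-miR-484* were small in EX at 30 months, at 370, 148 and 255 in steers 1, 2 and 3. The EX counts were 540, 937 and 825 at 20 months and 976, 325 and 674 at 25 months, and the FC counts ran from 573 to 6438. Among whole counts of 10 or more, the narrow window of values that held the most miRNAs was found in each library. Whether counts gather there more than in a smooth spread was not tested. Counts of 1 to 9 were left out, and in EX at 20 months 81, 89 and 79 miRNAs had them in steers 1, 2 and 3. The window there held 20, 29 and 22 miRNAs and began at 12 or 13, close to the cutoff. The median within the window is called the window count. In EX at 30 months it was 85.5, 68.5 and 36.5 in steers 1, 2 and 3. It was 13 to 14 in EX at 20 months and 24 to 45 in EX at 25 months. *bta-miR-484* at 30 months in EX thus held 4.33, 2.16 and 6.99 times the window count, against 12.5 to 72.1 times at the earlier ages. *bta-miR-320a* held 107 to 144 times that count in EX at 30 months, against 342 to 444 times at 20 months and 80.1 to 295 times at 25 months. By this measure it did not show the rise seen in CPM. How far the cutoff of 10 sets the window count, and so these contrasts between ages, was not tested. What else sets it, and its part in the *bta-miR-484* values, was not tested either. Were the window count the number of PCR copies of 1 molecule, these multiples would be the number of *bta-miR-484* molecules read. The level of *bta-miR-484* and the ratios that divide by it would then be less precise than the counts alone imply.

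The levels of *bta-miR-320a* and *bta-miR-484* were also set against each other within each library, as the ratio of their counts. Such a ratio needs no scaling between libraries, and both miRNAs have the same length, although ligation and PCR favour some sequences, so the ratio is read between libraries and not as a ratio of molecules. In EX it was 11.5, 6.13 and 5.81 in steers 1, 2 and 3 at 20 months. At 25 months it was 7.26, 12.2 and 5.35, and at 30 months 33.2, 49.4 and 20.7. The lowest ratio at 30 months lay above the highest of the earlier ages.

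In FC the ratio was 7.64, 5.69 and 3.61 in steers 1, 2 and 3 at 20 months. At 25 months it was 3.84, 4.91 and 4.33, and at 30 months 5.76, 7.30 and 12.1. The range at 30 months overlapped that at 20 months and lay above that at 25 months, and steer 3 at 30 months was the highest FC library.

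At 30 months against the mean of both earlier ages, the log2 ratio in EX was higher by 2.09 (SD 0.37 over 3 steers, 4.25-fold), and it was higher in 3 of 3 steers. An exact two-sided permutation test, in which any age of each steer could stand as the last one (27 choices), gave p = 0.037, its smallest possible value. In FC the difference was 0.72 (SD 0.79, 1.65-fold; exact permutation p = 0.148), with 0.09, 0.47 and 1.61 in steers 1, 2 and 3, and 0.28 without steer 3. EX minus FC was 1.37 (SD 0.95), with 1.77, 2.05 and 0.28 in steers 1, 2 and 3 (exact permutation p = 0.037), and this last test was added after the values were seen. Adjusted over these 3 tests by the method of Benjamini and Hochberg, the exact permutation p-values were 0.0556, 0.148 and 0.0556, so none stayed under 0.05.

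**Figure D3:**
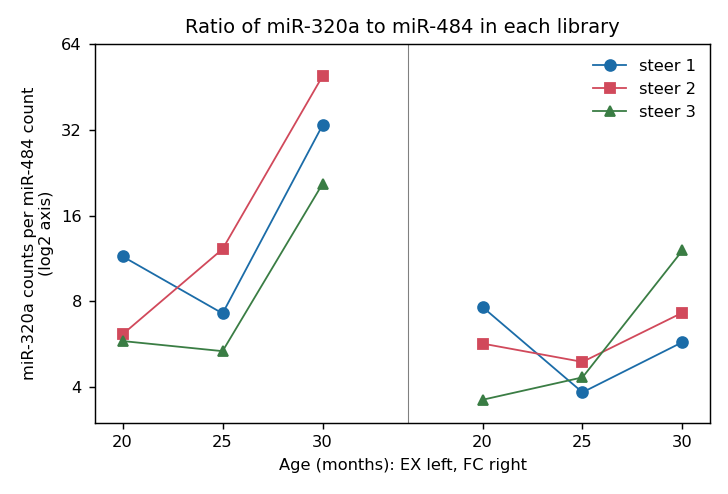
Counts of *bta-miR-320a* per count of *bta-miR-484* in each library (y axis, log2 scale) by age in months (x axis), EX left and FC right, 1 line per steer. The EX libraries at 30 months (20.7 to 49.4) lie above the 15 others (3.61 to 12.2).

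*bta-miR-320b* was at the edge of detection in both fractions. In EX steers 1, 2 and 3 had 5.33, 12.67 and 1.67 counts at 20 months. They had 1, 1.33 and 0 counts at 25 months, and 0, 0 and 3.67 counts at 30 months. It was at 3 counts or more in 3 of 9 EX libraries, and its highest level was 4.56 CPM, so it did not pass the filter on low values and was not tested.

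In FC *bta-miR-320b* had 6.67, 6.67 and 3 counts in steers 1, 2 and 3 at 20 months. It had 1.33, 2.67 and 4 counts at 25 months, and 0.33, 0.33 and 0 counts at 30 months. Despite the greater depth of FC only 4 of 9 libraries reached 3 counts, and no age difference can be read at this depth. Summed over libraries, *bta-miR-320a* had 2192 counts per count of *bta-miR-320b* in EX and 5209 in FC. Without steer 2 at 20 months, which held 12.67 of the 25.67 EX counts of *bta-miR-320b*, the EX value was 3887. Its counts were not whole numbers in 5 EX and 6 FC libraries, as were those of *bta-miR-320a* in 9 and 8, whereas *bta-miR-484* counts were whole in all libraries. The 2 loci and the shared run of both miR-320 members allow reads to be divided, and how far the few *bta-miR-320b* counts belong to *bta-miR-320a* was not tested.

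Measured over all ages, *bta-miR-320a* was steadier in FC than nearly all other miRNAs. Its TMM-scaled level ran from 1609 to 2407 CPM in FC, with a median of 1853, and the SD of its log2 value over 9 libraries was 0.178. This was the 2nd smallest of 358 miRNAs, whose median SD was 0.663. With library totals alone its SD was 0.325 and its place 21st, so the rank depended on the scaling. In EX its SD was 0.558, at place 79 of 345 (median SD 1.41), and over both fractions 0.527, at place 61 of 330. With library totals alone its EX value was 0.780, at place 111.

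The SD of *bta-miR-484* was 0.566 in FC, at place 137, 0.719 in EX, at place 110, and 0.660 over all 18 libraries, at place 102. With library totals alone it was 0.536 in EX, at place 66 and so ahead of *bta-miR-320a*, and which member was steadier in EX thus depended on the scaling. Of the 6 miRNAs in common use as plasma qPCR references, *bta-miR-24-3p* had the smallest SD of all 330 miRNAs over both fractions, at 0.205. *bta-miR-191*, *bta-miR-103*, *bta-miR-423-5p*, *bta-miR-93* and *bta-miR-16b* stood at places 5, 12, 17, 21 and 28, all ahead of both members over 18 libraries. Within FC *bta-miR-320a*, at place 2, was ahead of all 6 references, which ran from place 4 to place 42 on the same TMM scale, but with library totals alone *bta-miR-16b* and *bta-miR-423-5p*, at places 13 and 19, were ahead of it at place 21. Among these references 0 of 6 were called between 25 and 30 months in either fraction, where 14.8% of EX and 18.7% of FC miRNAs were, and with 6 miRNAs nothing is read from that count. Only 1 of the 6, *bta-miR-423-5p*, was called higher in EX than in FC at 30 months (0.78, SE 0.22, edgeR FDR = 0.0215), where 2.73% of miRNAs were.

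**Figure D4:**
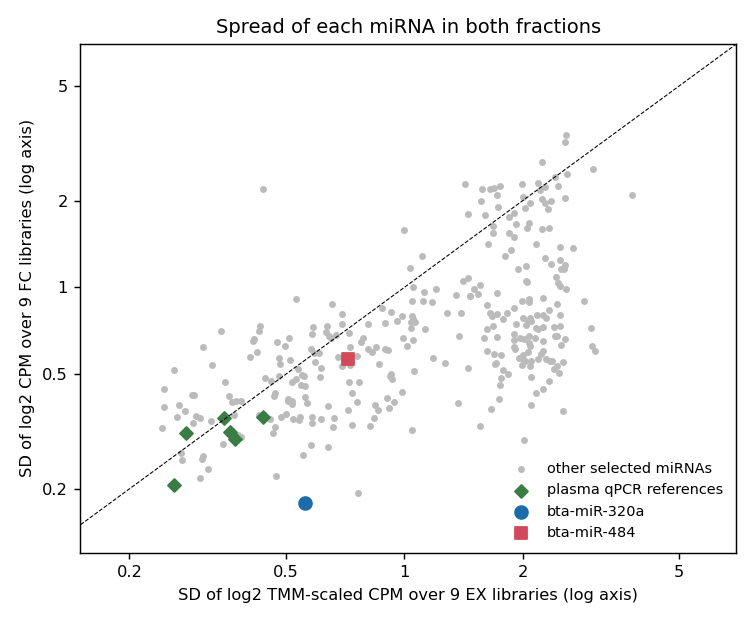
SD of the log2 TMM-scaled CPM of each of 330 miRNAs over 9 EX libraries (x axis) and 9 FC libraries (y axis), both on log axes, with equal SD on the dashed line. *bta-miR-320a* lies at 0.558 in EX and 0.178 in FC, near the lower edge, and *bta-miR-484* at 0.719 and 0.566.

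Of the other miRNAs that skip a step of maturation, 1, *bta-miR-451*, was called from 25 to 30 months, in EX. That is 1 of the 4 tested, where 14.8% of all EX miRNAs were called. Of the 4 mirtrons, 3 were in the table and 2, *bta-miR-877* and *bta-miR-1224*, passed the filter in both fractions. *bta-miR-1225-3p* was at 0 in every library, which leaves it under the floor. Neither of those tested was called from 25 to 30 months, and in EX they had opposite signs. *bta-miR-877* had a log2 fold change of -0.66 (SE 2.24, edgeR FDR = 0.879), and the median of both, 1.81 beside -0.51 for all 345 miRNAs, describes neither. *bta-miR-1224* stood at 82.0, 73.6 and 47.1 CPM in EX at 30 months in steers 1, 2 and 3, above 0 to 18.3 CPM at the earlier ages. Its log2 fold change was 4.27 with a wide error (SE 1.70, edgeR FDR = 0.137). Its counts at 30 months, 163, 73 and 51, were 1.91, 1.07 and 1.40 times the window count of their libraries.

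Of the 4 miRNAs hosted by small nucleolar RNAs, *bta-miR-664b* alone was tested and it was not called (EX -3.83, SE 2.30, edgeR FDR = 0.3). *bta-miR-451*, which skips Dicer, fell in EX from 25 to 30 months by 2.20 on the log2 scale (SE 0.51, edgeR FDR = 0.0269), opposite to *bta-miR-320a*. In FC its value was -1.68 (SE 0.52, edgeR FDR = 0.0516). *bta-miR-451* also marks red cells. Of the 3 red cell markers it alone was called in EX from 25 to 30 months, where 14.8% of EX miRNAs were. By mean CPM *bta-miR-144* fell there as well, whereas *bta-miR-486* did not.

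Over all 18 libraries the log2 levels of *bta-miR-320a* and *bta-miR-484* had a Pearson correlation of -0.56, with -0.65 within the 9 EX and 0.23 within the 9 FC libraries. The miRNAs whose levels ran most alike with *bta-miR-320a* among 330 were *bta-miR-193a-5p* (r = 0.81), *bta-miR-432* (r = 0.78) and *bta-let-7e* (r = 0.75). Within FC the first and second of these had r = -0.01 and -0.43, so their likeness rested on EX and on the step between fractions, while *bta-let-7e* had 0.64. For *bta-miR-484* they were *bta-miR-136* (r = 0.89), *bta-miR-2397-5p* (r = 0.80) and *bta-miR-19b* (r = 0.80), with r of 0.62 to 0.76 within FC. These are descriptions over 18 libraries that share 3 steers and 9 plasma samples. The 6 miRNAs were picked by these same levels, so their own differences between ages are not tested here.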

How the data were processed

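Small RNA was sequenced from EX and FC of 9 plasma samples. The authors trimmed the reads with Cutadapt 5.0 and Trimmomatic 0.39 (15 to 51 bases kept), assigned them with miRDeep2 to mature miRNAs on a Japanese Black genome built upon an earlier cattle assembly, and deposited estimated counts, in which shared reads are divided. The second deposited table holds CPM, a signal the authors computed as counts scaled to the total of each library. The 2 tables stood 1 row apart from row 956 down in 4 FC libraries, and 77 to 101 counts per library were recomputed from CPM there, while the members lie at row 889 or above. The sequence and gene names were read by name only, and no coordinates are given, because the RefSeq table is of another assembly.

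Counts were rounded, filtered (CPM > 5 in at least 3 of 9 libraries), scaled by TMM and fitted in edgeR 4.0.16 (R 4.3.3) by quasi-likelihood with age and steer. A second fit of 18 libraries took fraction by age and steer. The FDR was set by Benjamini and Hochberg over all miRNAs of a contrast. The block rests on the same 3 steers at each age, as the study's methods give it. The replicate number in the library titles was taken as the steer, which the titles do not name. With age means removed, libraries of the same number had a mean correlation of 0.03 in EX (lowest -0.05) and 0.13 in FC. Between different numbers it was -0.01 in EX and -0.07 in FC. In EX these values cannot show whether the numbers follow the same animals. The SE was taken from the F statistic, and levels for SD and correlation were log2 values with a prior count of 2. No 2 libraries of a group were copies (smallest chi-square per degree of freedom 196 over 18 pairs). Alternatives used DESeq2 1.42.0 and other edgeR settings. Tables were made with pandas 2.3.3, numpy 2.4.6 and Python 3.11.15, and figures with matplotlib 3.10.9. The fits were tested on simulated data.

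The named miRNAs are the members, the 3 most correlated with *bta-miR-320a* and with *bta-miR-484*, and the lists of other maturation routes, plasma references and cell markers. Members and lists were chosen with earlier results of these data known. The read mapping, qPCR and carcass records were not analysed here.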

Additional observations from a re-analysis of the deposited data

Results flagged for a closer look

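The change of *bta-miR-320a* from 25 to 30 months differed between the fractions by a test of the difference itself, EX minus FC, at 1.00 on the log2 scale (SE 0.25, edgeR FDR = 0.0246). The call held in 7 of 12 alternatives, and was lost without any 1 steer, without the filter on low values and with CPM > 5 in all libraries (highest FDR = 0.315). The libraries behind it were 1480 to 3148 CPM at 25 months and 4869 to 7370 CPM at 30 months in EX, and 1233 to 2556 and 1634 to 1819 CPM in FC. The same plasma samples gave both fractions.

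The ratio of *bta-miR-320a* to *bta-miR-484* had a change in EX that exceeded that in FC by 1.37 on the log2 scale (SD 0.95, n = 3; exact permutation p = 0.037, the smallest that 27 choices can give). Adjusted over the 3 ratio tests, the exact permutation p was 0.0556, which misses the threshold. Steer 3 differed from the others in this value, at 0.28 beside 1.77 and 2.05, since its FC ratio at 30 months was 12.1. The difference was 1.91 without steer 3, and it was tested after the values were seen.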

How the results depend on the processing

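Of 228 alternative values for the 20 fitted differences of *bta-miR-320a* and *bta-miR-484*, 199 kept their direction and side of the FDR threshold, 11 lost a call, 6 gained one and 12 turned in sign. The higher level of *bta-miR-320a* in EX than in FC at 30 months passed under every alternative. With steers left out in turn, *bta-miR-320a* gave 0.69 to 1.16 in EX from 25 to 30 months, 0.84 to 1.09 from 20 to 30 months and 0.90 to 1.21 for EX minus FC, and all 9 of these lost the call. Fewer samples were fitted and the estimates moved as well, and the part of each in the lost calls was not tested. EX minus FC also lost the call without the filter (1.24) and with CPM > 5 in all libraries (1.26), and the cause of that was not tested.

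Without the replicate block *bta-miR-320a* gave 1.00 (FDR = 0.0163) in EX from 25 to 30 months, and *bta-miR-484* in FC passed, at -1.04 (FDR = 0.0337). The block changed no other call of either member, but without it 2 and not 5 miRNAs were called for EX against FC at 20 months. The latter *bta-miR-484* difference also passed without the filter (-1.12), with CPM > 5 in all libraries (-1.03), by the likelihood ratio test (-1.04) and by DESeq2 (-1.01). In EX from 20 to 30 months *bta-miR-484* passed with CPM > 5 in all libraries (-1.15). The cause was not tested.

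Signs turned in comparisons that were not called. Leaving out steers gave *bta-miR-320a* -0.19 to 0.14 in EX and -0.050 to 0.048 in FC from 20 to 25 months, and -0.32 to 0.016 in FC from 25 to 30 months. It gave *bta-miR-484* -0.63 to 0.54 in EX and -0.093 to 0.61 in FC from 20 to 25 months, -0.25 to 0.075 for EX against FC at 20 months and -0.38 to 0.13 for EX minus FC. With library totals alone *bta-miR-320a* in FC from 20 to 25 months was -0.066 and *bta-miR-484* EX minus FC 0.34, and the latter was 0.022 with CPM > 5 in all libraries.

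Counts of called miRNAs moved by over 1.5 times. From 25 to 30 months 51 EX miRNAs were called, 14 higher and 37 lower, against 23 and 23 with library totals, 94 by the likelihood ratio test, 98 by DESeq2 and 11 to 16 without a steer. In FC 67 were called, against 108, 117 and 1 to 40, and 10 with rows as deposited. For EX against FC at 30 months 9 were higher and 63 lower, against 17 and 49 with RLE and 19 and 40 with library totals. Library totals moved the median of all miRNAs by 0.47 in EX from 25 to 30 months. At 30 months the floor of 3 counts limits *bta-miR-320b*.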
